A study of Mus musculus with 54 samples.

Results

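Methanol fixation after warm dissociation was examined in 6 single-cell RNA-seq libraries of mouse kidney, 3 of methanol-fixed cells and 3 of cells loaded fresh, out of 54 samples in the series. The libraries were taken by their labels as all warm-dissociated C57BL/6J cells that were either fixed in methanol or profiled fresh. They held 16802 cells (5545 fixed and 11257 fresh) of the 47282 cells in the 18 C57BL/6J cell libraries. All 6 came from kidneys of male AFAPIL.1DEL C57BL/6J mice of a single litter, aged 19 weeks, and all tissue was digested at 37 °C with a commercial enzyme kit. Fresh suspensions went straight onto the droplet instrument. Fixed aliquots of the same 3 suspensions were spun again, mixed dropwise with chilled methanol, stored frozen for months, rehydrated in a saline citrate buffer, filtered and loaded at fewer cells. Fixation therefore cannot be told apart from the storage, the extra spin, the rehydration buffer and the later library preparation.

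Methanol fixes cells by removing water and precipitating proteins and nucleic acids in place, without the chemical crosslinks that aldehydes make. The plasma membrane is opened in the process. In 3′ droplet sequencing each captured molecule carries a unique molecular identifier (UMI), and a gene's level is the number of its UMIs. The kidney suspension is dominated by proximal tubule cells, which reabsorb most of the filtrate, together with cells of the loop of Henle, distal tubule and collecting duct, endothelium and resident immune cells.

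The fresh libraries, replicates 1 to 3, held 2412, 5972 and 2873 cells and 5252363, 14064480 and 6299622 UMIs. The fixed libraries held 1451, 3312 and 782 cells and 1964764, 3882938 and 983522 UMIs. Fixed replicate 3 was the shallowest of the 6. Pairs of libraries had 1 to 39 cell barcodes in common, where random draws from all barcodes would give 1.54 to 26.8. Of 13049 genes, 139 to 1484 were listed at 0 in the fresh libraries and 3977, 2250 and 6038 in fixed replicates 1, 2 and 3. The study's methods kept genes detected in at least 10 cells. Per library, 1168 to 2222 genes were above 0 in 10 to 19 cells but only 56 to 851 in 1 to 9, so most genes seen in under about 10 cells of a library appear to be listed at 0 there. That is 0.167% to 0.415% of the cells of a fresh library and 0.302% to 1.28% of a fixed one, a higher bar in the smaller fixed libraries. Levels are given as CPM, the UMIs of a gene in every 1000000 UMIs of its library. In fixed replicate 3, 10 UMIs are worth 10.2 CPM, against 0.711 in fresh replicate 2, and a 0 is not measured absence, so no fold is given against it.

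Fixed cells gave fewer UMIs and fewer genes each. The median cell held 1266.5, 1542 and 1243 UMIs in the fresh libraries and 868, 802 and 818 in the fixed ones. The groups did not overlap, and the means differed by -521 UMIs (fresh 1350.5 ± 166, fixed 829 ± 34.4, SD, n = 3 each, 2-sided exact permutation p = 0.1, the smallest that 3 against 3 allows). The median number of genes was 560, 604 and 526 in fresh and 457, 414 and 419 in fixed cells. The order turned when every cell was thinned to 500 UMIs and shallower cells were left out, which kept 86.9% to 95.04% of fresh cells and 75.3% to 77.4% of fixed cells. The median was then 282, 255 and 269 genes in fresh and 311, 303 and 301 in fixed cells, a difference of 36.3 genes (exact permutation p = 0.1). At equal depth, the UMIs of a fixed cell were spread over more genes.

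UMIs were then summed per library and tested with edgeR, and a gene was called at an adjusted p below 0.05 and a log2 fold change of at least 1 in size. Of 10826 genes tested, 616 were called (5.69%), 42 higher (0.388%) and 574 lower (5.3%) after methanol. Of the 574, 326 were listed at 0 in all 3 fixed libraries, of which 3 had a fresh mean over 10 CPM, and these calls rest on zeros that the cell minimum can give. Another 182 were above 0 in all 6. Among the 6948 genes above 0 in all 6 libraries, a set taken after the data were seen, 275 were called (3.96%), 51 higher (0.734%) and 224 lower (3.22%). With the suspension as a replicate block, pairing each fixed library with the fresh library of the same suspension, 306 were called (2.83%), 44 higher (0.406%) and 262 lower (2.42%). The total also moved when a library was left out, to 239, 189 and 239 genes without fresh replicate 1, 2 or 3 and to 2390 and 987 without fixed replicate 2 or 3. The median log2 change over all tested genes was -0.20 and over those above 0 in all libraries -0.02. The groups did not overlap in CPM in 41.4% of the tested genes.

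**Figure D1:**
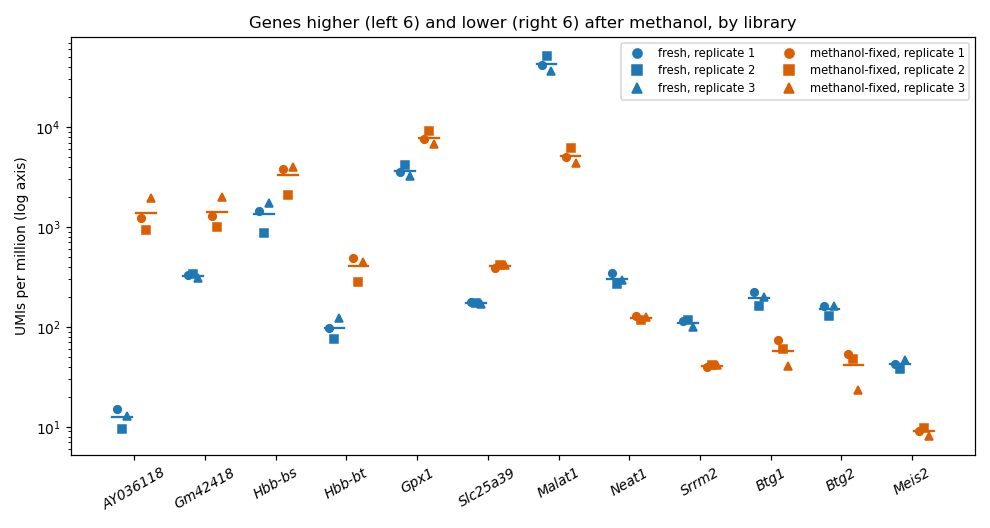
CPM (log axis) of 12 genes in each library, with points for the 3 fresh (blue) and 3 methanol-fixed (orange) libraries, symbols for the replicate number and bars for group means. In each of the 12 genes the fixed libraries lie wholly above or wholly below the fresh ones, from AY036118, at 9.53 to 15.0 in fresh and 939 to 1961 in fixed libraries, to Malat1, at 36089 to 51237 in fresh and 4334 to 6151 in fixed libraries. The 12 were picked from called genes, of which all 42 higher and 573 of 574 lower ones do not overlap. Separation was therefore set by the choice, and 41.4% of all tested genes show it.

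The sharpest rise was in AY036118, a long noncoding RNA gene at chr17:39847113-39848035 (GRCm38, minus strand). It had 15.0, 9.53 and 12.7 CPM in the fresh libraries and 1234, 939 and 1961 in the fixed ones, 109-fold higher (log2 fold change 6.76 ± 0.30 SE, adjusted p = 0.000163). The fixed libraries all lay far above the fresh ones. AY036118 lies inside Gm42418, on the other strand, at chr17:39846958-39848788. Both are in a segment of chromosome 17 that carries ribosomal RNA sequence, and how the counting treated the overlap is not given in the sources used here. Gm42418 itself had 333, 339 and 307 CPM in fresh and 1284, 1000.04 and 2001 in fixed libraries (log2 2.05 ± 0.21 SE, adjusted p = 0.00227). The neighbouring noncoding gene Gm26917, at chr17:39843013-39846341, went the other way. It had 54.1, 50.8 and 42.5 CPM in fresh and 20.4, 16.0 and 13.2 in fixed libraries (log2 -1.59 ± 0.16 SE, adjusted p = 0.00227). A list of 7 predicted noncoding genes was put together with earlier results of these data known, so its counts are a description. Of the 7, 5 were tested, 4 were called higher (0.388% of all tested genes) and Gm26917 was lower (5.3%). Among them Gm10116 had 225, 143 and 253 CPM in fresh and 1216, 727 and 1764 in fixed libraries (log2 2.51 ± 0.30 SE, adjusted p = 0.003).

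Hemoglobin transcripts, which mark red blood cells and their debris, were higher. Hbb-bs (chr7:103826534-103828096), the major adult beta chain, had 1451, 881 and 1735 CPM in fresh and 3800, 2114 and 3981 in fixed libraries (log2 1.22 ± 0.26 SE, adjusted p = 0.021). Hbb-bt (chr7:103812524-103813996), its neighbour, had 97.1, 75.01 and 123 in fresh and 489, 284 and 447 in fixed libraries (log2 1.98 ± 0.21 SE, adjusted p = 0.00245). In both genes replicate 2 was lowest in each group, and fresh and fixed libraries did not overlap. The hemoglobin list too was chosen with earlier results of these data known, so its count is a description. Of the 4 hemoglobin genes, 3 were called higher, where 0.388% of all tested genes were. The exception was Hba-a2, at log2 0.88 ± 0.24 SE (adjusted p = 0.0409), under the fold threshold. Their summed share was 0.303%, 0.179% and 0.355% of UMIs in fresh and 0.746%, 0.426% and 0.746% in fixed libraries. The calls of Hbb-bs and Hba-a1 were lost when some single libraries were left out, with adjusted p up to 0.0848 and 0.115 (Hbb-bs without fresh replicate 1 or 2 or fixed replicate 1, and Hba-a1 without any but fixed replicate 2), whereas Hbb-bt was called each time. Hba-a1 also fell just under the fold threshold with RLE scaling or with doublets removed.

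Many of the genes called higher share much of their 3′ sequence with another annotated gene. Of the 42, 39 were matched to the GENCODE M21 annotation. In 22 of them (56.4%), more than 50% of the 50-base words in the last 500 bases of the transcript also occur in another gene's transcripts. Among all matched genes that were tested, 254 of 10494 (2.42%) share as much. The count does not tell genes elsewhere in the genome from genes annotated over the same stretch. AY036118 is among the 22, with 100% of its words in CT010467.1. The last 60 coding bases (GRCm38 transcripts, stop codon left out) of 2 such pairs are shown, with the base that differs in capitals.
Hbb-bt: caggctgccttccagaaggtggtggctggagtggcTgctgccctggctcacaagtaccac
Hbb-bs: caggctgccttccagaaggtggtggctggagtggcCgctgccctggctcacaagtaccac
Gm10053: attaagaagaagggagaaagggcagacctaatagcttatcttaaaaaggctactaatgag
Cycs: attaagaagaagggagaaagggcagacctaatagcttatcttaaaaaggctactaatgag
Hbb-bt and Hbb-bs differ at 1 of 441 coding bases, but share only 64.5% and 64.8% of the words in their last 500 bases, which include the untranslated end that reads can cover. Gm10053 (chr19:24875686-24876631) and Cycs (chr6:50562563-50566538), which encodes cytochrome c, are identical over 315 coding bases.

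For 18 of the 22 genes the gene with most shared words was itself tested. The called genes were chosen by their change, so the sizes within pairs are given as a description. Gm10053 had 124, 90.2 and 142 CPM in fresh and 337, 229 and 512 in fixed libraries (log2 1.51 ± 0.26 SE, adjusted p = 0.00878). Cycs had 1479, 1327 and 1582 in fresh and 2301, 2107 and 2500.4 in fixed libraries (log2 0.60 ± 0.09 SE, adjusted p = 0.00483), the same direction at a smaller size. Gm10076, a copy of the ribosomal protein gene Rpl41, had 470.3, 519 and 648 CPM in fresh and 1918, 1831 and 1923 in fixed libraries (log2 1.73 ± 0.13 SE, adjusted p = 0.00115). Rpl41 had 3450.3, 3480.3 and 3459 in fresh and 3447, 3624 and 3324 in fixed libraries (log2 -0.05 ± 0.10 SE, adjusted p = 0.764). Rps26-ps1 and Rps26 stood in the same relation (log2 1.07 and 0.01), as did Eno1b and Eno1 (1.77 and 0.18). These are not the usual case, since 11 of the 18 partners were themselves higher at an adjusted p below 0.05, as Lsm7 (0.97) and Apoo (0.70) were, and Hbb-bs and Zfp932 changed less than their partners. UMIs of such genes may belong to either gene, and since read length in each library is not given in the sources used here, its part was not tested.

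**Figure D2:**
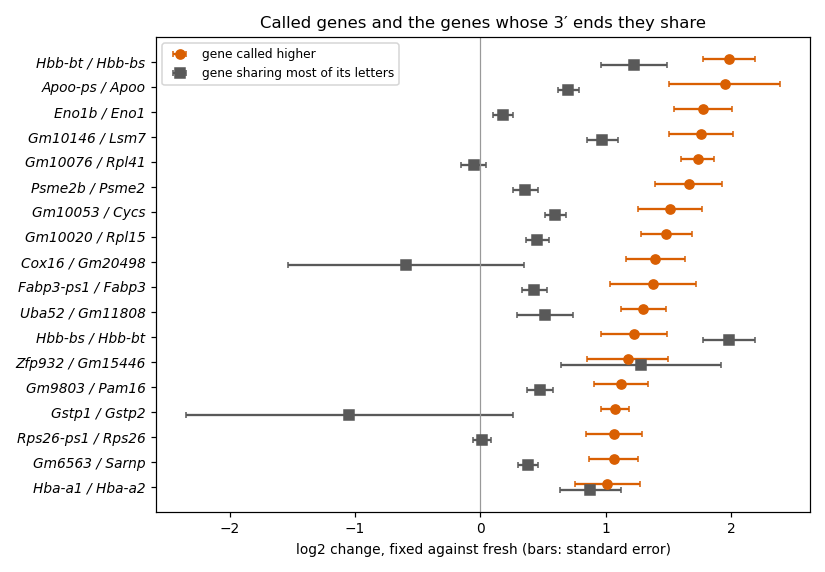
log2 change after methanol of 18 genes called higher (orange) and of the tested gene with which each shares most of its 3′ letters (grey), with standard errors as bars. The first gene of each pair was chosen by its change. Gm10076 lies at 1.73 against Rpl41 at -0.05, and Gm10053 at 1.51 against Cycs at 0.60.

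Gpx1, Slc25a39, Timm8a1 and Sugct, also called higher, share none of these words with another gene. Gpx1 (chr9:108338903-108340343), the cytosolic glutathione peroxidase that proximal tubule cells express strongly, had 3588, 4195 and 3214 CPM in fresh and 7533, 9071 and 6734 in fixed libraries (log2 1.03 ± 0.18 SE, adjusted p = 0.00986). Slc25a39, a mitochondrial carrier, had 179, 172 and 170.3 in fresh and 393, 421 and 416 in fixed libraries (log2 1.19 ± 0.08 SE, adjusted p = 0.0011). The 3 libraries of each group lay close together in Slc25a39. Timm8a1, a mitochondrial import chaperone, was also higher (log2 2.095 ± 0.26 SE, adjusted p = 0.00314), as was Slx1b, a nuclease subunit that shares 12.6% of its words (log2 2.45 ± 0.35 SE, adjusted p = 0.00483). Sugct (log2 1.84, adjusted p = 0.0102) completed the 10 largest increases with the pseudogene Apoo-ps, all of whose words are shared (log2 1.95, adjusted p = 0.0212), and Nme2, a nucleoside diphosphate kinase with 98.9% shared (log2 1.88 ± 0.45 SE, adjusted p = 0.0235). The calls of Apoo-ps and Nme2 were lost without any fresh library, with adjusted p up to 0.0848 and 0.102, and that of Nme2 also without fixed replicate 1 or 3. Without fresh replicate 1 or 3 or fixed replicate 2 the change of Gpx1 fell under the fold threshold, to 0.86 at the lowest. Hist2h2aa1, a histone gene whose 3′ end is shared with other genes, rose from 9.33, 6.40 and 9.68 to 135, 62.1 and 171 CPM (log2 3.76 ± 0.35 SE, adjusted p = 0.0021).

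Of 5 tested genes on a list of nuclear long noncoding RNAs, 4 were lower. Malat1 (chr19:5795690-5802672), a long noncoding RNA held in nuclear speckles, had 41893, 51237 and 36089 CPM in fresh and 5047, 6151 and 4334 in fixed libraries. That is 8.63-fold lower (log2 -3.11 ± 0.24 SE, adjusted p = 0.00115), and the groups were far apart. Neat1 (chr19:5824708-5845478), which builds the nuclear paraspeckles, had 346, 270.1 and 294 in fresh and 129, 117 and 126 in fixed libraries (log2 -1.34 ± 0.08 SE, adjusted p = 0.000821). The 5 are those of a list of 10 that could be tested, and their median log2 change was -1.34 against -0.20 over all genes, of which 5.3% were called lower. The list was not matched for length. Among all tested genes 11.3% were lower at transcripts of 6 to 8 kb (median -0.711) and 15.9% over 8 kb (median -0.858). Snhg11 (log2 -1.30 ± 0.18 SE), which GENCODE M21 annotates as protein coding, was also called lower. So was the imprinted antisense RNA Kcnq1ot1 (at 0 in fixed replicates 1 and 3). Jpx did not pass the test (log2 -0.32, adjusted p = 0.83). Snhg11 was among the 10 genes highest over other cells in proximal tubule clusters 13 and 22. Cluster 13 held 3.91% of fresh and 0.605% of fixed proximal tubule cells, and cluster 22 held 4.66% and 3.42%. For Snhg11, fewer such cells and less RNA per cell cannot be told apart in these sums.

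Of 26 transcripts of splicing and nuclear speckle proteins, 9 were called lower and none higher, where 5.3% of all genes were lower. Their median log2 change was -0.71, against -0.20 over all genes. Among all tested genes the share called lower rose from 1.45% at transcripts of 1 to 2 kb to 15.9% over 8 kb. The list was not matched for length. The other 17 were not called. With no fold threshold 18 of the 26 were lower and 1 was higher, where 9.77% of all tested genes were lower and 7.53% higher. Srrm2, a speckle scaffold, had 114, 118 and 99.8 in fresh and 39.7, 41.5 and 41.7 in fixed libraries (log2 -1.48 ± 0.12 SE, adjusted p = 0.00115). Nktr (log2 -1.64 ± 0.15 SE) and Pnisr (log2 -1.53 ± 0.17 SE) followed. Of 20 chromatin regulators, a list put together from genes with long transcripts, 8 were called lower (5.3% of all genes) and none higher (median log2 -1.02, against -0.20 over all genes). Of all tested genes with transcripts over 8 kb, 15.9% were called lower, with a median of -0.858, and nothing particular to chromatin is read from the count. The lower ones included Bptf, a nucleosome remodelling subunit (log2 -1.52 ± 0.28 SE, adjusted p = 0.0119). Kmt2d, a histone methyltransferase, was listed at 0 in fixed replicate 1.

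Among the genes above 0 in all 6 libraries, those with the largest decrease after Malat1 included genes of varied function. Meis2, a homeobox transcription factor, had 42.3, 38.3 and 46.5 CPM in fresh and 9.16, 9.79 and 8.13 in fixed libraries (log2 -2.21 ± 0.16 SE, adjusted p = 0.0011). Prrc2c (37.7 CPM on average in fresh and 9.02 in fixed libraries, adjusted p = 0.00159), the mitochondrial phosphatase Pdp2 (log2 -1.99, adjusted p = 0.00532) and the deadenylase subunit Pan3 (log2 -1.91, adjusted p = 0.00653) were lower too. The zinc finger factor Mecom (log2 -2.06 ± 0.25 SE), the nonmuscle myosin Myh9 (log2 -1.88 ± 0.20 SE) and the anchoring protein Akap13 (log2 -1.88 ± 0.17 SE) were also lower, with adjusted p from 0.00187 to 0.00314. The rule for named genes also took Gm26699, Rel, Eif4ebp2, Tnip3, Cd28, Dnm3, Cit, Syne1, Gm11713 and Slc24a5, which were listed at 0 in the 3 fixed libraries, so that their order by fitted change has no measured basis. In the fresh libraries they had between 6.54 and 25.7 CPM. The calls of 8 of these 10 were lost when a single fresh library was left out; Gm26699 and Rel were called each time.

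Change tracked transcript length. Over genes whose longest annotated transcript is at most 1 kb the median log2 change was 0.287 (n = 595). It was lower in each longer bin, 0.143 at 1 to 2 kb, -0.0938 at 2 to 3 kb, -0.25 at 3 to 4 kb, -0.47 at 4 to 6 kb and -0.711 at 6 to 8 kb, and it reached -0.858 above 8 kb (n = 590). In the shortest bin 3.36% of genes were called higher and 2.02% lower, and in the longest 0% and 15.9%. Genes above 0 in all 6 libraries had the same order, from 0.297 to -0.542. Spearman's rho across genes was -0.471 over 10494 genes and -0.483 over 6732, a description only, since the genes share their libraries. The same order held within each of the 9 cell classes described below, where genes of up to 1 kb had medians of 0.120 to 0.402 and genes over 4 kb medians of -0.667 to -0.274.

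**Figure D3:**
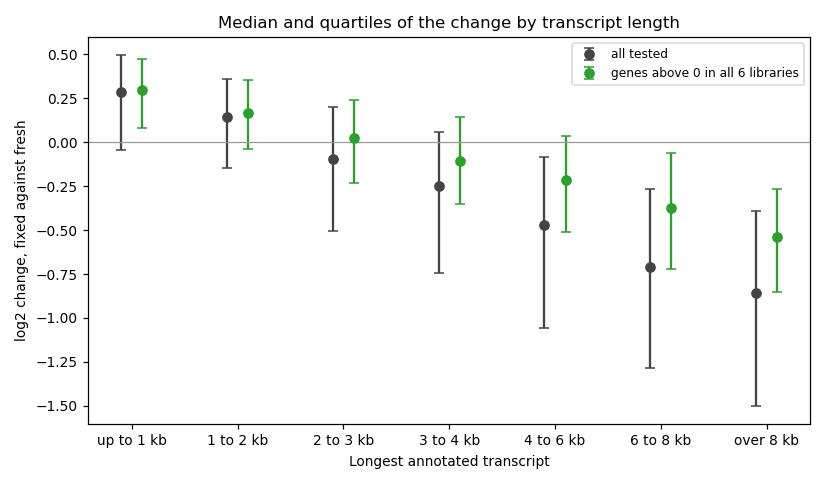
Median log2 change after methanol (points) and its quartiles (bars) by length of the longest annotated transcript, for all tested genes and for those above 0 in all 6 libraries. Both series fall in each successive bin, from 0.287 to -0.858 and from 0.297 to -0.542.

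Short nuclear-encoded transcripts of the respiratory chain sat on the upper side. Of 76 tested genes of the oxidative phosphorylation complexes, a single one, Atp5s, was called higher (log2 1.05 ± 0.25 SE, 0.9997 and so under the threshold with the replicate block, and not called without any fresh library or fixed replicate 1), but 49 were higher at an adjusted p below 0.05 with no fold threshold and none was lower (median log2 0.38). Without that threshold, 815 (7.53%) of all tested genes were higher. Uqcrb, a subunit of the cytochrome bc complex, had 1089, 898 and 1214 CPM in fresh and 2113, 2208 and 2044 in fixed libraries (log2 0.94 ± 0.11 SE, adjusted p = 0.00294). The list took up 7.12%, 6.95% and 7.15% of UMIs in fresh and 9.33%, 9.78% and 9.81% in fixed libraries. Ribosomal protein genes, 82 tested, had no call in either direction and a median log2 change of -0.17. With no fold threshold 21 of them were lower and 2 higher, where 9.77% of all tested genes were lower.

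Transcripts made inside the mitochondrion took up a smaller share of UMIs, with 2 of 13 called lower (5.3% of all tested genes) and 1 higher (0.388%). The 13 mitochondrial genes took up 20.2%, 25.9% and 23.5% of UMIs in fresh and 15.1%, 17.5% and 17.5% in fixed libraries, with no overlap. mt-Nd4, a complex I subunit, had 15967, 18649 and 18189 CPM in fresh and 8724, 8777 and 9589 in fixed libraries (log2 -1.02 ± 0.14 SE, adjusted p = 0.00413). mt-Nd3, another, was lower at log2 -1.09 ± 0.21 SE (adjusted p = 0.0138). Both are near the fold threshold. mt-Nd4 fell short of it without fresh replicate 2 (-0.94) and with scaling by library size (-0.97), and mt-Nd3 without fresh replicate 3 (-0.99) or fixed replicate 3 (-0.96). mt-Atp8, which encodes a small ATP synthase subunit, was the only one of the 13 called higher. It had 494, 374 and 500.3 CPM in fresh and 1160, 793 and 2148 in fixed libraries (log2 1.51 ± 0.30 SE, adjusted p = 0.0163), and its call was lost when any fresh library was left out, with adjusted p up to 0.0764. The other 10 had log2 changes between -0.72 and -0.14.

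The 17 stress genes that the study scored in these kidneys included none called higher after methanol, where 0.388% of all tested genes were, and 3 called lower, where 5.3% were. The list was chosen by the study on samples that include these, so it is not independent evidence of a direction. Btg1, an antiproliferative factor, had 222, 162 and 197 CPM in fresh and 73.3, 59.8 and 40.7 in fixed libraries (log2 -1.74 ± 0.17 SE, adjusted p = 0.00227). Its relative Btg2 was lower by a like amount (log2 -1.81 ± 0.21 SE, adjusted p = 0.00288), and Fosb, a subunit of the immediate-early factor AP1, was lower too (log2 -1.12 ± 0.14 SE, adjusted p = 0.00314). Jun (log2 -0.98), Hsp90ab1 (-0.77), Egr1 (-0.53) and Fos (-0.49) passed the adjusted p but not the fold. Hspa8, a constitutive chaperone, stood at 0.05, and Ier2 and Dusp1 at 0.30 and 0.28 without passing. Of 16 further labile feedback genes none was called. With the replicate block Socs3, a cytokine signalling inhibitor, was called lower (log2 -1.003, adjusted p = 0.0148).

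Of 21 abundant proximal tubule transcripts Gpx1 was called, and of 14 abundant distal transcripts none, where 5.69% of all tested genes were called. Counts this small are near that share. None of 23 tested transporter genes was called, and their median log2 change was -0.36. No actin cytoskeleton gene (14), metallothionein or Nrf2 target (10) or antigen presentation, complement or immunoglobulin gene (12) was called, although Actb stood close to the threshold (log2 -0.96 ± 0.07 SE, adjusted p = 0.00115). Of 11 tested endothelial transcription factors 3 were called lower (5.3% of all genes), among them Meis2 and Tcf4 (log2 -1.08 ± 0.14 SE), and with the replicate block Ets1 was added (log2 -1.47, adjusted p = 0.0324). The median of the list was -0.22, against -0.20 over all genes. Endothelial cells were 4.51% of fresh and 2.97% of fixed cells on average, and in these sums fewer cells of a type and less RNA per cell cannot be told apart. Within the endothelial class described below, 4 of 11 tested genes of the list were called lower (5.91% of all genes there). Their median log2 change there was -0.35, against -0.04 over all genes of the class.

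Cells were next grouped into classes by marker genes, and UMIs were summed per class and library. Within a class, CPM are the UMIs of a gene in every 1000000 UMIs of that class in the library. Classes with at least 10 cells in 2 or more libraries of each group were tested. These were proximal tubule (8010 fresh and 4297 fixed cells), ascending loop of Henle (720 and 286), macrophages (575 and 169), endothelial cells (516 and 188), connecting tubule (325 and 140), distal convoluted tubule (271 and 79), intercalated cells (242 and 116), T cells (152 and 72) and B cells (123 and 74). Fixed replicate 3 had 8 T cells and 9 B cells and was left out of these classes. The naming used these markers, so the levels of markers are a description. From fresh to fixed cells the number of markers over 2-fold above the other cells went from 10 to 7 of 10 in macrophages, from 10 to 7 of 11 in T cells, from 14 to 12 of 14 in intercalated cells and from 7 to 6 of 7 in connecting tubule, and was the same in the other 5 classes. Only 7, 7, 13 and 6 of these markers had any UMIs in the fixed cells of the 4 classes, and all of those but 1 in intercalated cells stayed over 2-fold.

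In the classes, 691 of 9619 genes were called in at least 1 (197 higher, 498 lower, and 4 both ways, Clu, Fyb, Ifi27l2a and S100g). In proximal tubule cells 329 of 9087 genes were called (3.62%), 97 higher (1.07%) and 232 lower (2.55%). Endothelial cells had 66 higher (2.62%) and 149 lower (5.91%, 8.52% in all) and the ascending loop 40 (1.68%) and 80 (3.36%, 5.04% in all). In distal convoluted tubule 32 were higher (2.69%) and 61 lower (5.13%, 7.82% in all), in connecting tubule 21 (2.1%) and 50 (5.0%, 7.09% in all), and in intercalated cells 12 (1.06%) and 40 (3.53%, 4.59% in all). Macrophages had 37 higher (2.63%) and 42 lower (2.99%, 5.61% in all), B cells 14 (2.7%) and 6 (1.16%, 3.86% in all) and T cells 3 (0.296%) and 6 (0.592%, 0.888% in all). The numbers differ with class size and do not rank the classes. Scaled by library size alone, the median of all genes moved up by 0.08 to 0.49 on the log2 scale and the balance turned to higher genes in many classes. The numbers higher and lower were then 109 and 193 in proximal tubule, 109 and 122 in endothelial cells, 93 and 41 in the ascending loop, 95 and 27 in distal convoluted tubule, 147 and 23 in connecting tubule, 93 and 29 in intercalated cells, 108 and 32 in macrophages, 36 and 6 in B cells and 12 and 6 in T cells. With the replicate block T cells had 32 higher and 46 lower and intercalated cells 25 and 86. Proximal tubule clusters 13 and 17 held 11.2% of fresh and 1.30% of fixed proximal tubule cells, and without them, an alternative chosen after the data were seen, the total over classes was 577. In macrophages cluster 23 held 59.7% of fresh and 43.2% of fixed cells and cluster 9 the rest. Left out in turn, fresh replicate 1 gave 438 and fixed replicate 2 gave 1050.

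A small set of genes recurred across classes. AY036118 and Gm10076 were called higher in 9 of 9 classes, Gm10116 in 7 of 8, Hbb-bt and Gpx1 in 7 of 9, mt-Atp8 in 6 of 9 and Gm42418 in 5 of 9. Malat1 and Btg1 were called lower in 9 of 9, mt-Nd4 in 6 of 9, Neat1 in 5 of 9 and Mecom and Rrbp1 in 4 of the 4 classes that tested them. AY036118 in proximal tubule cells had 15.9, 10.2 and 12.5 CPM in fresh and 1240, 919 and 1923 in fixed libraries, and endothelial cells had 19.4, 12.7 and 14.7 against 1337, 1050.3 and 2025. In both classes the fixed libraries kept the same order.

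The size of the Malat1 decrease varied between classes. In connecting tubule it had 32903, 41892 and 26464 CPM in fresh and 1191, 879 and 973 in fixed libraries (log2 -5.56 ± 0.24 SE). In proximal tubule it had 39804, 49617 and 31300 against 3588, 4405 and 2851 (log2 -3.56 ± 0.22 SE). In macrophages the levels were 34453, 44045 and 34178 against 12249, 16450 and 13092 (log2 -1.65 ± 0.18 SE), and in endothelial cells 89638, 89268 and 78136 against 27600, 24195 and 18085 (log2 -2.04 ± 0.26 SE). The difference between classes was not tested, since the classes share their libraries. Btg1 was higher in lymphocytes than elsewhere when fresh. It went from 2898, 1777 and 2848 to 429 and 596 in T cells (log2 -2.35 ± 0.30 SE) and from 63.3, 52.2 and 45.9 to 34.9, 26.5 and 20.1 in proximal tubule cells (log2 -1.02 ± 0.17 SE).

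**Figure D4:**
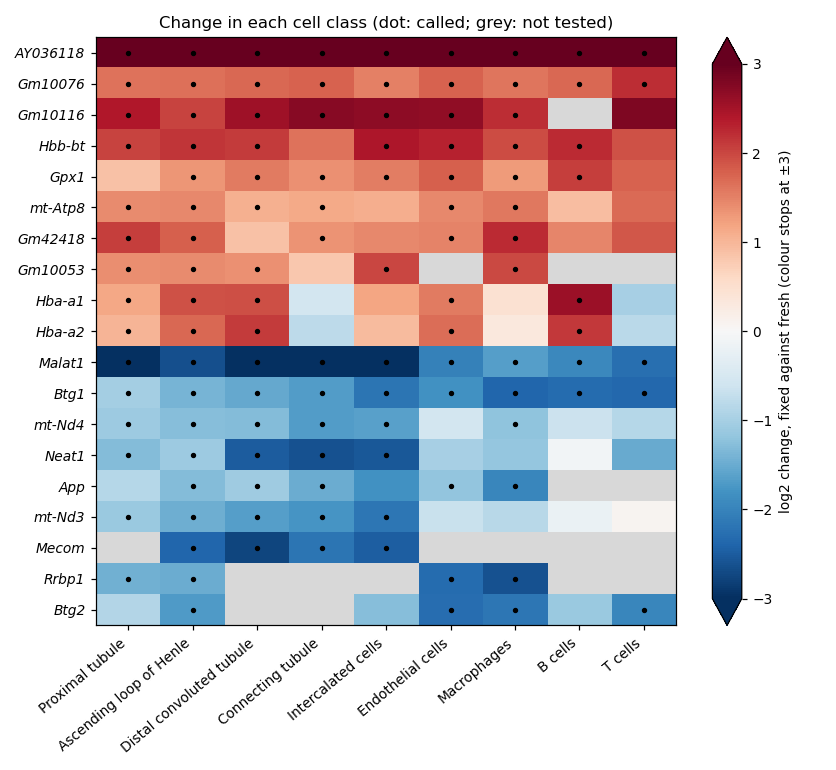
log2 change after methanol in 9 cell classes (columns) of 10 genes called higher and 9 called lower in most classes (rows), with a dot where the gene was called, grey where it was not tested and colours that stop at ±3. AY036118 and Gm10076 are called in 9 of 9 classes in one direction and Malat1 and Btg1 in the other, whereas Hba-a1 and Hba-a2 are not called in 4 of 9.

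The share of mitochondrial transcripts was lower in the 5 tubule classes after fixation, and the groups overlapped in the other 4. It went from 19.98%, 25.3% and 23.5% to 14.5%, 17.4% and 17.2% in proximal tubule and from 29.5%, 36.5% and 32.3% to 17.7%, 18.03% and 17.4% in connecting tubule (exact permutation p = 0.1 each, the smallest possible). In endothelial cells it was 10.6%, 18.9% and 14.8% in fresh and 14.8%, 16.0% and 19.0% in fixed libraries, and in B cells 15.2%, 22.5% and 18.1% against 19.7% and 19.1%. With fixation the shares of the classes came to lie closer together, between 14.4% and 24.3% over all classes and fixed libraries, where fresh ones spanned 10.6% to 36.5%.

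Class-specific genes at the extremes were mostly ones listed at 0 after fixation, which the cell minimum can give, so they are not shown to be lost. All of those named here were at 0 in the whole fixed libraries, not in the class alone. The fixed libraries held 40, 106 and 23 macrophages. In macrophages Cx3cr1, the fractalkine receptor, had 187, 190.3 and 230 CPM in fresh libraries and 0 in the 3 fixed ones, as Creb5 did from 95.1 to 137. In endothelial cells Apold1 (74.5 to 191 in fresh), Slfn5 and Dnm3 were at 0 after fixation, and in the ascending loop Erbb4 (52.3 to 58.3) and Lrrc31 were. In T cells Cd28, the costimulatory receptor, had 747, 644 and 820 in fresh and 0 in both fixed libraries. Endothelial Fosb remained measurable and was lower, from 481, 311 and 323 to 104, 90.0 and 71.1 (log2 -2.14 ± 0.30 SE, adjusted p = 0.00186).

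Transcripts of the proximal tubule made up a larger share of UMIs in each of the 8 other tested classes after fixation. The exact test of shares cannot give a p below 0.1 with so few libraries, so it cannot decide this. The 21 proximal tubule transcripts took up 0.916%, 1.91% and 1.04% of UMIs in fresh endothelial cells and 2.75%, 3.09% and 3.27% in fixed ones. In macrophages the share was 1.40%, 2.06% and 1.32% in fresh and 3.44%, 3.67% and 2.61% in fixed libraries, and in the ascending loop 1.99%, 2.02% and 1.42% against 3.40%, 3.41% and 3.07%. In 8 of 8 classes other than proximal tubule the fixed libraries lay wholly above the fresh ones, by a ratio of means of 1.82 to 2.36 (median 2.104). The exact permutation p was 0.1 in 7 classes, the smallest that 3 against 3 or 3 against 2 libraries allow, and 0.2 in T cells, and none passed 0.05 (0.138 or more after Benjamini-Hochberg adjustment over the 22 pairs of list and class examined). Over all cells the list took up 7.80%, 7.27% and 7.59% of UMIs in fresh and 9.30%, 9.22% and 9.70% in fixed libraries. In proximal tubule cells Gpx1 alone had 4498, 5358 and 4116 CPM in fresh and 8829, 10871 and 7711 in fixed libraries (log2 0.89 ± 0.16 SE, under the fold threshold). The median log2 change of the list there was -0.02 on the TMM scale, where that of all genes was -0.08. The shares above are not on that scale. On it, the list's median in the 8 other classes lay between 0.47 (ascending loop) and 0.82 (endothelial cells). Members called higher ranged from 0 of 18 tested in T cells (0.296% of all genes there) to 7 of 18 in distal convoluted tubule (2.69%). None was called lower.

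Hemoglobin and distal transcripts had the same direction in most classes. Hemoglobin took up 0.113%, 0.0646% and 0.303% of UMIs in the fresh ascending loop and 0.883%, 0.379% and 0.788% in the fixed one. It was higher without overlap in 6 of 9 classes. In connecting tubule and T cells fresh replicate 1 had the highest share of all, 1.53% and 2.29%, against 0.0747% to 0.220% in the other fresh libraries, and in macrophages the groups overlapped. The 14 distal transcripts in proximal tubule cells went from 0.0538%, 0.0852% and 0.0635% to 0.171%, 0.319% and 0.238%. Of 5 classes not of the distal nephron, 3 showed this without overlap. The transcript Cd74, which antigen-presenting cells express, was called higher in proximal tubule cells, from 169, 149 and 136 to 427, 355 and 273 CPM (log2 1.15 ± 0.13 SE, adjusted p = 0.000512), and 8 of the 9 antigen presentation, complement and immunoglobulin genes tested there were called higher (1.07% of all genes tested there). In macrophages none of 9 (5.61% of all genes there were called) and in B cells none of 8 (3.86%) was called. None was called in the ascending loop (4 tested, 5.04%), endothelial cells (4, 8.52%) or T cells (5, 0.888%) either. Intercalated cells (2 tested, 1.06% of all genes higher), connecting tubule (1, 2.1%) and distal convoluted tubule (1, 2.69%) had 1 called higher each. Sets this small do not set these classes apart. The part of RNA released into the suspension in these shares was not tested.

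**Figure D5:**
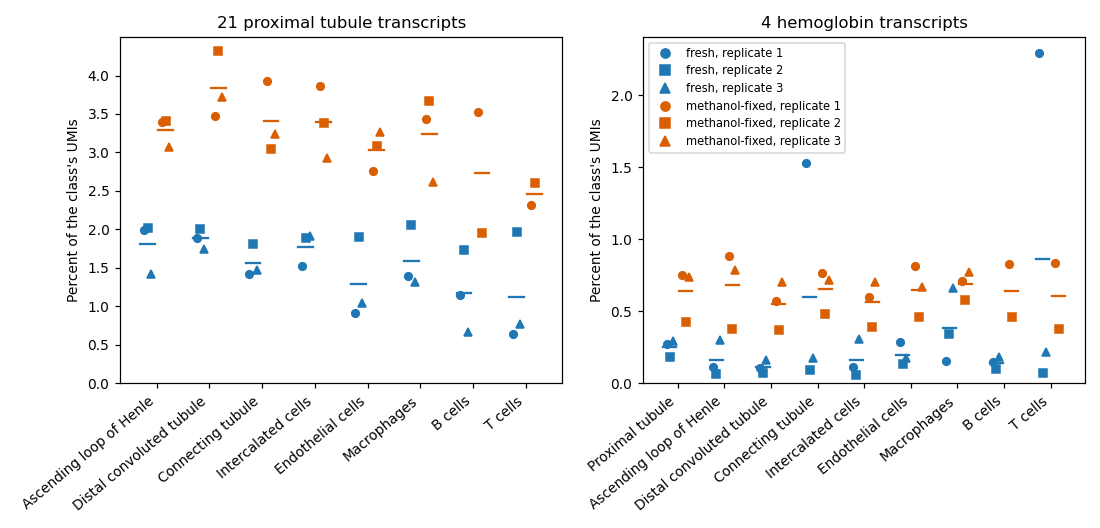
Percent of a class's UMIs taken by 21 proximal tubule transcripts in 8 other classes (left) and by 4 hemoglobin transcripts in 9 classes (right), with a point per library and bars for group means. The fixed libraries (orange) lie above the fresh ones (blue) in 8 of 8 classes on the left and 6 of 9 on the right, where fresh replicate 1 stands out in connecting tubule and T cells.

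Macrophages and distal convoluted tubule cells had lower shares of cells after fixation. Proximal tubule cells were 73.5%, 70.5% and 70.5% of cells in fresh and 77.6%, 76.7% and 80.8% in fixed libraries. Macrophages were 4.64%, 5.51% and 4.66% in fresh and 2.76%, 3.20% and 2.94% in fixed libraries (log2 -0.73 ± 0.15 SE, edgeR adjusted p = 0.00445 over 14 classes). Most of that decrease lay in macrophage cluster 23, with 343 of 11257 fresh and 73 of 5545 fixed cells. Macrophage cluster 9 changed less, with 232 and 96 cells. Over all clustered cells, median UMIs in cluster 23 were 0.498 times the library median, against 1.27 in cluster 9. Cluster 23 was named from 5 markers and cluster 9 from 8. The part of cell depth in the decrease was not tested. Distal convoluted tubule cells were 2.03%, 2.63% and 2.26% in fresh and 1.31%, 1.42% and 1.66% in fixed libraries (log2 -0.73 ± 0.20 SE, adjusted p = 0.0182). In these 2 of 14 classes (14.3%) the change was called, and in both the groups did not overlap. The descending loop of Henle had a larger change that did not pass, at 0.663%, 0.804% and 0.766% in fresh and 0.207%, 0.483% and 0.256% in fixed libraries (log2 -1.01 ± 0.34 SE, adjusted p = 0.0542). It was called with doublets removed (0.0316, on 3, 14 and 2 fixed cells) and without fixed replicate 2 (0.0296, on 3 and 2 fixed cells). The name of this class is weak. It rests on 4 markers, none of them among the 10 genes highest in the cluster over other cells. In the coarser clustering a cluster with as many fresh and fixed cells (86 and 21) was left unnamed. The ascending loop did not pass either, at 6.09%, 5.74% and 8.01% in fresh and 4.82%, 5.28% and 5.24% in fixed libraries (adjusted p = 0.123), although the groups did not overlap. With the replicate block endothelial cells, 4.31%, 4.76% and 4.46% in fresh and 3.31%, 3.80% and 1.79% in fixed libraries, and proximal tubule cells were called as well (adjusted p = 0.0279 and 0.0191, against 0.0807 and 0.311 without it). The call of distal convoluted tubule was lost without fresh replicate 2 or fixed replicate 1 or 2, with adjusted p of 0.0716, 0.0774 and 0.068, and endothelial cells were called without fresh replicate 3 or fixed replicate 2, at 0.0333 and 0.0296. A lower share of one class raises the shares of the rest, and with shares rescaled by trimmed means neither macrophages nor distal convoluted tubule cells passed (adjusted p = 0.0585 and 0.169) and proximal tubule cells did (0.0376).

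The same fixation was made on aliquots of cold-dissociated kidneys, digested on ice with a cold-active protease. The test of whether methanol changed genes differently after warm and after cold dissociation called none of 12001 genes (0%) with edgeR, the lowest adjusted p being 0.106, and 1205 (10.0%) had an unadjusted p below 0.05. DESeq2 called 139, the replicate block 5, and without fixed warm replicate 2 edgeR called 804. The cold libraries share no library with the warm ones. AY036118 had 16.2, 3.23 and 6.05 CPM in cold fresh and 417, 583 and 724 in cold fixed libraries. Malat1 had 35235, 47178 and 48489 in cold fresh and 6457, 6241 and 4034 in cold fixed libraries (log2 -3.05 ± 0.24 SE, against -3.11 in warm, difference -0.06 ± 0.31 SE).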

How the data were processed

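UMI counts per gene and cell were deposited by the authors, who state Cell Ranger 2.1.1 with the mm10 reference, EmptyDrops cell calling, and filters on genes per cell and mitochondrial share. The labels give the chemistry as 10x. The authors kept genes detected in at least 10 cells, and most genes under about that number in a library appear to be listed at 0 there. Cells were clustered with scanpy 1.11.5 (Leiden, resolution 2, 2000 variable genes, 30 components) and classes were named from marker genes, so they may differ from the study's. Doublets were marked (0.639% to 4.77% of cells) and kept in the main test. Counts were summed per library, or per class and library with at least 10 cells, filtered with filterByExpr, TMM-normalized and tested with edgeR 4.0.16 (quasi-likelihood, R 4.3.3), without a block, as the study's tests had none. p-values were adjusted by Benjamini-Hochberg over all genes tested in the library sums, and within each class in the class sums, with no adjustment over classes. DESeq2 1.42.0 was an alternative. Depth was 983522 to 14064480 UMIs per library. Samples were grouped by their labels.

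Cell names carry a code of the suspension, which ties each fixed library to 1 fresh library. Deviations from group means over 2184 genes correlated at 0.480, 0.661 and 0.462 within a suspension and at -0.480 to 0.0521 across, and results were repeated with the suspension as a replicate block. Of 13049 symbols, 12650 (96.9%) matched GENCODE M21, used for lengths, coordinates (GRCm38) and shared sequence. On simulated counts for the library sums (10826 genes), 99% of genes changed by log2 1.5 and 100% of those changed by log2 3 were recovered. Another 5 genes were called falsely. The simulation gave all genes the same spread, changed only genes above the median count and set no zeros by the cell minimum. It therefore does not measure recovery or false calls among the many real calls that rest on such zeros.

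Named genes were, in the library sums, the 10 called genes with the largest change in each direction among those without overlap, and in the classes the 10 called in most classes and the 3 largest per class; all members of 5 lists and the 4 largest changes of each other list. Pairs of genes with shared sequence, Slc25a39, the genes above 0 in all libraries, and class values of Cd74 and Fosb were chosen after values were seen. The members and lists were chosen with earlier results of these data known, so counts of list members called are a description. Replicates are separate suspensions, so p-values measure the spread between these samples. Some results are not reported here because they concern withheld items.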

Additional observations from a re-analysis of the deposited data

How the results depend on the processing

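Fixed replicate 3 has the fewest UMIs. Most genes seen in under about 10 cells of a library appear to be listed at 0 there, and 326 of the 574 genes called lower are at 0 in the 3 fixed libraries. The 616 genes called in the library sums became 306 with the replicate block (suspension as a term), 275 among genes above 0 in all 6 libraries and 116 with the third kidney left out of both groups (the last pair chosen after the data were seen), 1873 with no fold threshold and 370 at a log2 change of at least 2, and ranged from 189 to 2390 without each library in turn. The 691 genes called in at least 1 class became 1212 with no filter, 1397 with no fold threshold, 252 at a log2 change of at least 2 and 29 at the study's thresholds, with 438 to 1050 without each library. The 2 classes whose share of cells was called became 1 with trimmed-mean scaling, 4 with the replicate block and 1 to 3 without each library. The difference in genes per cell was 51.5 at 1000 UMIs. For warm against cold, 0 genes became 139 with DESeq2, 5 with the replicate block and 2 among genes above 0 in all 12 libraries (both added after the data were seen), and 0 to 804 without each library. The causes were not tested. RLE or library size scaling, DESeq2 and doublet removal kept the totals of the library and class sums within 1.5 times, as did a coarser clustering in the class sums and leaving out hemoglobin, mitochondrial and predicted noncoding genes in the library sums. Of 53 named called genes, 34 were called in every fit without 1 library, and no single called value reversed its direction. With the third kidney left out, 23 of 55 named genes lost their call, among them Sugct (adjusted p = 0.075), Mecom (0.0518), Pdp2 (0.052), Pan3 (0.0513), Bptf (0.0732), Gpx1 (0.0593) and mt-Nd4 (0.0536). With library size scaling the genes called higher in at least 1 class went from 197 to 452, and the balance of higher and lower turned in 6 classes.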
